A study of Mus musculus with 21 samples.

Results

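The genes described here encode the semaphorins, plexins, neuropilins, Eph receptors and ephrins, the membrane and secreted proteins through which neighbouring cells repel, attract and sort from each other. They were chosen by symbol alone, as every gene on the array whose name begins with Sema and a digit, Plxn, Epha or Ephb and a digit, or Efna or Efnb and a digit, together with Nrp1 and Nrp2. Of 18193 genes with a probe set annotated to a single symbol, 53 met this rule. They comprise 7 secreted class 3 semaphorins, 12 transmembrane semaphorins, the lipid-anchored Sema7a, 2 neuropilins, 9 plexins, 9 EphA and 4 EphB receptors, 5 A-type and 3 B-type ephrins, and Plxna4os1, an antisense transcript at Plxna4. The 53 genes are covered by 124 probe sets, and 36 of them have more than 1, in which case the probe set that was brightest on average over the 21 arrays was used.

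The study followed CGR8, a mouse embryonic stem cell line, as it differentiated with or without ascorbic acid (AA, vitamin C), which raises the yield of beating heart cells in such cultures. RNA was hybridised to 1-colour Affymetrix arrays of 7 groups with 3 biological replicates each, and values are log2 signals. Cultures entered the study only where AA had later raised the number of beating embryoid bodies at days 8 and 12. The AA groups, their controls and the differences between them therefore come from a selected set. No group carries a transgene or deletion, and the labels call the replicates biological without saying whether they came from separate thaws or days.

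The day 0 group is undifferentiated stem cells in a 10% GMEM medium. The other 6 groups are embryoid bodies, spheres of differentiating cells, in a 20% IMDM medium. Each began as a hanging drop of 500 cells in 25 µL, and after day 2 the bodies were kept on a shaker for up to 3 more days. Control bodies and bodies given 100 µM AA were collected at day 2, day 3 and day 5. The step from day 0 to day 2 therefore changes medium and culture form together with time.

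Class 3 semaphorins are secreted, and most of them bind a neuropilin, which holds no signalling domain of its own and works with a plexin. Most membrane-bound semaphorins bind plexins directly. Plexins carry an intracellular GTPase-activating domain that acts on Rap and Ras proteins and loosens adhesion to the matrix. Eph receptors are receptor tyrosine kinases whose ligands, the ephrins, are themselves tethered to cells, by a lipid anchor in the A class and by a transmembrane stretch in the B class, so signals pass both ways at a cell contact. In the early embryo these systems position migrating mesoderm, set boundaries between tissues, and guide growing vessels and neural crest.

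Array values ran from 2.51 to 14.51 with array medians of 6.05 to 6.19. Replicates of a group correlated at r = 0.972 to 0.995 over all 45101 probe sets. A principal component analysis over all genes put 54.6% of the variance on the first component; over the 53 genes alone the first component held 72.6%. Replicate 1 of day 0 stood apart from its group, with a score of 14.3 on the second component against 52.3 and 54.0, and replicate 3 of day 3 stood apart on the first in both arms, at -18.3 and -18.9 against -6.10 to -2.19. Values without these arrays are given with the steps that use them. The mean of 8 pluripotency markers ran from 11.48 to 12.10 per array at day 0, from 10.80 to 10.98 in day 3 controls and from 6.59 to 7.32 in day 5 controls. Neither an identical pair of arrays nor a column outside the series was found.

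The windows of 250 bases upstream of the first listed transcription start were taken from RefSeq (build GRCm38.p6), which held 46 of the 53 genes by gene ID. The windows of 3 genes are shown as examples of 3 kinds of move: Sema5a climbed through differentiation, Efnb2 rose from day 0 to day 2, and Sema3e fell from day 3 to day 5. Capitals mark matches, on either strand, to the GC box GGGCGG, which reads CCGCCC on the other strand, to the E-box CAGGTG of Snail-type factors, which reads CACCTG there, and to the TATA element TATAAA, which reads TTTATA there. The GATA site AGATAA and the octamer ATGCAAAT were searched as well. The windows read 5′ to 3′ in the direction of transcription.
Sema5a, chr15:32244563-32244812, plus strand: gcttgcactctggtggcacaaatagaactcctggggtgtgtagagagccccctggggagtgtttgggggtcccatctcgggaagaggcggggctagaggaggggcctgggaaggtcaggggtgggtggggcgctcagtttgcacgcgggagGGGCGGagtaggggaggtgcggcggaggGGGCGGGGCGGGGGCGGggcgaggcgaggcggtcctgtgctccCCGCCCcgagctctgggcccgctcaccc
Efnb2, chr8:8661243-8661492, minus strand: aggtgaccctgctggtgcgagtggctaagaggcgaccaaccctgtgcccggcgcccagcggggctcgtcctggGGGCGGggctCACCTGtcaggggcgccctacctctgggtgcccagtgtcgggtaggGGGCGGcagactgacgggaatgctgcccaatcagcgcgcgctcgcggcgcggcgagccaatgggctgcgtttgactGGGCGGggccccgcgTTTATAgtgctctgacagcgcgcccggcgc
Sema3e, chr5:14025026-14025275, plus strand: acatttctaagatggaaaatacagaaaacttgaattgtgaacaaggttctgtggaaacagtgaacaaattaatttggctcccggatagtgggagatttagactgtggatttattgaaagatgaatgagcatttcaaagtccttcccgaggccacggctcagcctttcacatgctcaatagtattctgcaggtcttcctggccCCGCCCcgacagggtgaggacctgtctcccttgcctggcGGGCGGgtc

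The Sema5a window held 5 GC boxes, which begin at positions -99, -71, -66, -60 and -28 from the start, 17 CpG pairs and 72.0% G and C, and it overlaps the non-coding gene Snhg18. The Efnb2 window held GC boxes at -177, -121 and -45, an E-box at -167, a TATA element at -30 and 27 CpG pairs. Sema3e lay in an AT-richer window, with 48.0% G and C, 7 CpG pairs, and GC boxes at -48 and -9. Across the family 36 of the 46 windows (78.3%) held at least 1 GC box, against 50.0% of windows of 14369 genes on the array, while median G and C content was 64.4% against 57.6%. The E-box was found in 10.9% of the family's windows against 16.9%, the GATA site in 4.35% against 7.46%, the TATA element in 2.17% against 9.01% and the octamer in 0 windows against 1.38%. These are letter matches only, and overlapping matches were counted. Several of the genes are neighbours in the same annotation: Efna1, Efna3 and Efna4 are adjacent coding genes on chromosome 3, as are Sema3d and Sema3a on chromosome 5.

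To see which members lie in the range of genes that these cells should not use, the 53 were set beside 74 olfactory, vomeronasal and taste receptor genes, whose 95th percentile of mean log2 signal was 6.75. Of the members, 31 had a mean above this level and 22 were at or under it. A gene was called where limma's moderated test gave it a p under 0.05 after Benjamini-Hochberg adjustment over the 18193 genes, and by this measure 32 of the 53 members (60.4%) changed in at least 1 comparison of days or arms, against 41.6% of all genes. Another 12 were both at the low end and never called, namely Epha3, Epha5, Epha6, Epha7, Epha8, Ephb6, Plxna4os1, Sema3c, Sema3d, Sema5b, Sema6b and Sema7a, with means of 3.89 to 6.65 and group means that ranged by at most 0.73. The remaining 9 were above that level and were never called: Plxna1, Plxna3, Plxnb1, Plxnb3, Sema3b, Sema3f, Sema4f, Sema4g and Sema6c, with group means ranging by 0.10 to 0.46. Among them are the main co-receptor plexins of class 3 semaphorins, Plxna1 and Plxna3, and Sema3f, the repellent that acts through neuropilin 2; Sema3f read between 10.04 and 10.80 on all 21 arrays. A probe set reports its own gene only, so levels of different genes are not compared. Where the lower of the groups compared has a mean under 6.75, the fold given is that of the signals. It may understate the change in RNA, which was not tested. From day 3 to day 5 in controls the lower mean is under 6.75 for Nrp1, Nrp2, Efna1, Plxna2, Plxnd1, Sema5a, Sema6d, Epha1 and Sema3e.

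**Figure D1:**
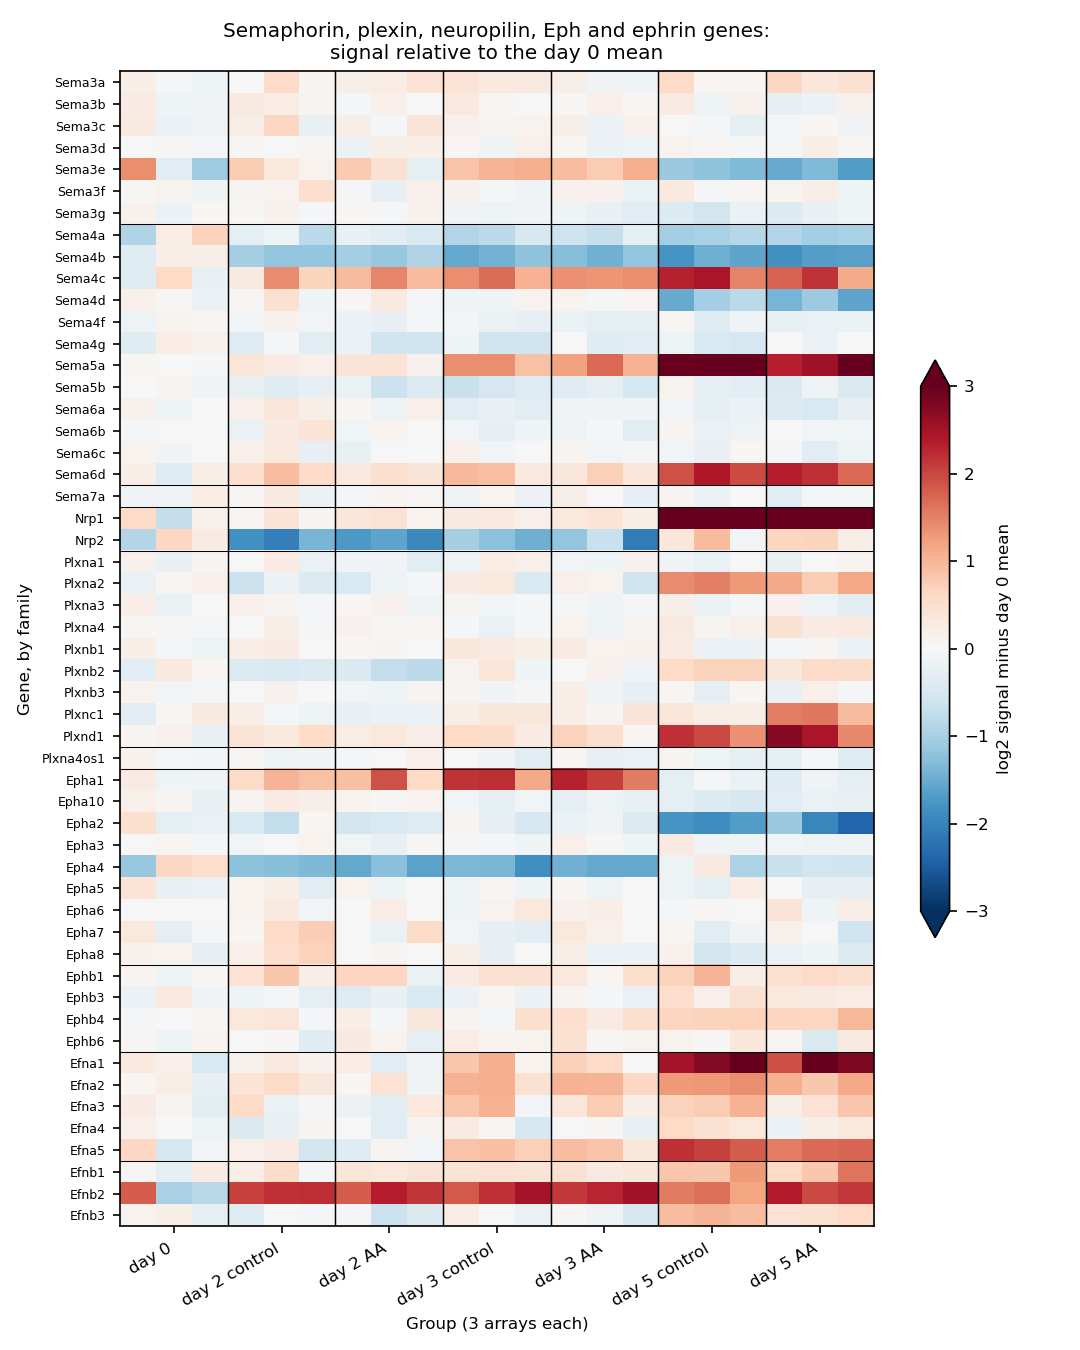
Log2 signal of the 53 genes (rows) on the 21 arrays (columns, ordered by group) minus each gene's day 0 mean, with colours from -3 to 3. The widest change is the block of high Nrp1 values on the 6 day 5 arrays, while 21 genes, among them Plxna1 and Sema3f, were called in no comparison. Their group means ranged by at most 0.73.

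The heat map of differences from day 0 shows where the family moved: most of the colour lies between day 3 and day 5, in both arms, and only a few genes had moved by day 2. The 3 day 0 arrays are not alike for Efnb2, Epha4, Nrp2 and Sema3e, where replicate 1 differs from the other two. In these bulk samples, fewer cells of a type and less RNA per cell cannot be told apart, here or in any result that follows.

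Between the undifferentiated cells and day 2 control bodies, 5 members were called: Efnb2 and Sema6d rose, and Nrp2, Epha4 and Sema4b fell. This is 9.43% of members, against 11.8% of all genes (rose 3.77% against 4.80%, fell 5.66% against 6.99%), so the family as a whole sat near the background; its median difference was 0.07 against 0.03 over all genes. Ephrin B2, a B-type ligand known for marking arterial endothelium, read 8.75, 5.97 and 6.10 in day 0 replicates 1 to 3 and 8.98, 9.12 and 9.16 in the day 2 controls. Replicate 1 of day 0 was thus already near the day 2 level, although the groups did not overlap. The rise was 2.15 ± 0.44 (log2 ± SE, n = 3 against 3, 4.43-fold, limma adjusted p = 0.00345). Without that replicate it was 3.05 ± 0.19 (limma adjusted p = 9.85e-10). With the mean of the gene's probe sets the rise was only 0.90, though still called.

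Neuropilin 2, a co-receptor for Sema3F and VEGF-C, read 6.83, 8.33 and 7.94 at day 0 and 5.89, 5.65 and 6.31 at day 2. Every day 2 array was lower, a fall of 3.36-fold (log2 -1.75 ± 0.35, limma adjusted p = 0.00265). Without day 0 replicate 1 the difference was -2.19 ± 0.32. With the mean of the gene's probe sets it was only -0.80, though still called. EphA4, which binds ephrins of both classes, read 7.36, 9.13 and 9.03 at day 0 and 7.28, 7.22 and 7.16 at day 2, so that replicate 1 again lay close to day 2. Its difference was -1.29 ± 0.33 (adjusted p = 0.0141), and -1.86 ± 0.23 without that replicate. All 5 Epha4 probe sets were lower at day 2, by log2 differences of -0.59 to -2.40.

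Sema4b, a transmembrane semaphorin, read 8.33, 8.89 and 8.86 at day 0 and 7.70, 7.51 and 7.53 at day 2. The groups were well apart (-1.11 ± 0.14, 2.16-fold, limma adjusted p = 7.25e-05; -1.29 ± 0.13 without day 0 replicate 1), and this call alone held in every alternative analysis of the step. Sema6d, a transmembrane ligand of plexin A1, rose by 0.67 ± 0.21 (limma adjusted p = 0.0431), from 6.22, 5.63 and 6.18 to 6.52, 6.93 and 6.58. Without that replicate the rise was 0.77 ± 0.23. With the mean of its probe sets Sema6d differed by 0.21 and was not called. Leaving out replicate 1 of day 0 gave 9 called members, adding Epha1, Plxnb2, Sema3e and Sema4a, leaving out replicate 2 or 3 of day 0 gave 3 (Efnb2, Nrp2 and Sema4b), and fitting only the 6 arrays compared gave Sema4b alone. At this step 4.80% of all genes rose and 6.99% fell. Of 36 measured partners of plexins and neuropilins 0 rose and 2 fell (Mical1 by 1.33 and Dpysl3 by 1.26 on the log2 scale). Of 38 partners of Eph receptors and ephrins 1 rose (Sdcbp, 0.44) and 3 fell (Yes1 at -0.88, Dvl2 at -0.53 and Itsn2 at -0.51). Vegfc, a VEGF that binds neuropilin 2, fell by 2.25, alone among 8 VEGF ligands and receptors. Of 22 slit, robo, netrin and related guidance genes Unc5b rose by 0.63 while Ntn1, Robo1 and Neo1 fell by 1.31, 1.02 and 0.91.

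From day 2 to day 3 the control bodies again showed 5 called members: Epha1, Sema5a, Efna5 and Plxnb2 rose and Sema6a fell. That is 9.43% of members against 5.81% of all genes (rose 7.55% against 4.86%, fell 1.89% against 0.945%), with a median of -0.02 against -0.03. Sema5a, a transmembrane semaphorin with thrombospondin repeats, read 5.76, 5.65 and 5.57 at day 2 and 6.81, 6.80 and 6.29 at day 3. The day 3 arrays were all higher, by 0.97 ± 0.25 (limma adjusted p = 0.0257), although both group means lie in the low range. EphA1 rose from 6.82, 7.27 and 7.13 to 8.40, 8.45 and 7.38, with replicate 3 of day 3 only just above the highest day 2 array (1.00 ± 0.29, 2.00-fold, adjusted p = 0.0439). With the mean of a gene's probe sets Sema5a differed by only 0.24 and Epha1 by 0.35, and neither was called.

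Ephrin A5, an A-type ligand that acts as a repellent in retinal mapping, rose from 6.77, 6.85 and 6.07 to 7.46, 7.52 and 7.32, a difference of 0.87 ± 0.24 (limma adjusted p = 0.0360). With the mean of its probe sets the difference was 0.51 and was not called. Plexin B2, a receptor for class 4 semaphorins, rose by 0.54 ± 0.15 (adjusted p = 0.0402), from 7.87, 7.82 and 7.86 to 8.39, 8.65 and 8.14. Sema6a, a ligand of plexins A2 and A4, fell by 0.53 on the log2 scale (SE 0.11, adjusted p = 0.00924), from 7.95, 8.15 and 7.97 to 7.45, 7.56 and 7.48, but its other probe sets differed by 0.74 and 0.20 in the opposite direction. The groups did not overlap for any of these 5 genes. At this step 12 members in all had groups that did not overlap, a count not made over all genes. Calls were few and close to the threshold: 1 member (Sema6a) remained without day 2 control replicate 3, day 3 control replicate 1 or day 3 control replicate 2, 2 members without day 2 control replicate 2, and 7 members were called without day 3 replicate 3 of both arms. In that last fit Epha1 differed by 1.35 ± 0.26, Sema5a by 1.15 ± 0.27, Efna5 by 0.93 ± 0.26, Plxnb2 by 0.67 ± 0.17 and Sema6a by -0.52 ± 0.14.

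In the AA arm the same step called 4 members, 7.55% against 4.69% of all genes, all of which rose (7.55% against 3.41%, with 0% falling against 1.29%), and the family's median difference was 0.05 against 0.00. Sema5a rose by 1.01 ± 0.25 (limma adjusted p = 0.0232), Efna5 by 0.84 ± 0.24 (adjusted p = 0.0489) and Plxnb2 by 0.65 ± 0.15 (adjusted p = 0.0163). Ephrin A2 was the fourth, at 7.59, 7.97 and 7.43 on day 2 and 8.57, 8.56 and 8.15 on day 3 (0.76 ± 0.18, 1.70-fold, adjusted p = 0.0151). With the mean of a gene's probe sets Sema5a differed by 0.38, Efna5 by 0.42 and Efna2 by 0.325, and none of these was called. The arms share no arrays, and 3 genes were called in both, which is 60.0% of the control arm's calls and 75.0% of the AA arm's. The arms are not independent, since arrays of the same day and replicate number deviated together and 1 fit covers all groups. The share of all genes called in both arms was not computed. No member was called by limma without day 2 AA replicate 3, day 3 AA replicate 1 or day 3 AA replicate 2, and 1 was without day 2 AA replicate 1. Among partner genes in the control arm, 4 of 36 plexin and neuropilin partners rose (Rras 0.87 and Farp1 0.72 among them). So did 9 of 38 Eph and ephrin partners, with the scaffold Cask (0.84) and the adaptors Nck2 (0.73) and Crk (0.70) ahead. None of either list fell, and of all genes in that arm 4.86% rose and 0.945% fell. Primitive streak markers rose at the same step (5 of 8 in controls), and their part in the members' changes was not tested.

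The step from day 3 to day 5 moved the family most. In the control arm 18 of 53 members were called, 14 of which rose and 4 fell, or 34.0% of members against 18.3% of all genes. The rises were 26.4% of members against 9.08% of all genes and the falls 7.55% against 9.24%, and the median difference was 0.07 against -0.03. Both neuropilins rose, as did 3 of 9 plexins, 3 of 5 A-type ephrins, 1 of 3 B-type ephrins and 2 of 4 EphB receptors. Of 9 EphA receptors 1 rose and 2 fell, and of 12 transmembrane semaphorins 2 rose and 1 fell, while 1 of 7 class 3 semaphorins fell and none rose. The groups did not overlap for any of the 18. At this step 25 members in all had groups that did not overlap, a count not made over all genes.

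Neuropilin 1, the co-receptor of class 3 semaphorins and of VEGF-A that developing vessels and the heart need, gave the widest change of the family. It read 5.92, 5.94 and 5.79 in day 3 controls and 11.43, 11.70 and 11.24 in day 5 controls. It had stayed within 4.92 to 6.22 on every earlier array of either arm, so the change fell wholly between day 3 and day 5. The difference was 5.57 ± 0.22 (limma adjusted p = 4.57e-13). The day 3 arrays lie in the low range, so the 47.6-fold ratio is that of the signals and may understate the change in RNA. All 4 Nrp1 probe sets rose, by 1.82, 5.03, 5.57 and 7.28. Nrp2 rose again after its early fall, from 6.70, 6.46 and 6.23 to 8.03, 8.64 and 7.61 (1.63 ± 0.35, 3.10-fold, adjusted p = 0.00199), against 6.83, 8.33 and 7.94 at day 0. Its other probe sets differed by 0.51 to 0.70.

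Plexin D1, the receptor through which Sema3E acts on endothelium, read 6.39, 6.35 and 6.05 at day 3 and 7.98, 7.78 and 7.16 at day 5. It rose by 1.38 ± 0.25 (2.60-fold, limma adjusted p = 0.000545). Plexin A2, which serves class 3 and class 6 semaphorins, rose by the same 1.38 ± 0.21 (adjusted p = 7.61e-05), from 6.68, 6.75 and 5.98 to 7.86, 7.96 and 7.73, with differences of 1.16 to 2.09 over its probe sets. Plexin B2 rose a second time, by 0.54 ± 0.15 (adjusted p = 0.0169), from 8.39, 8.65 and 8.14 to 8.87, 8.96 and 8.96.

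Sema3e moved against its receptor. It read 7.82, 7.97 and 8.04 in day 3 controls and 5.83, 5.74 and 5.64 in day 5 controls, a fall of 4.62-fold (-2.21 ± 0.39, limma adjusted p = 0.000331), and its other probe sets differed by -0.69 to -1.09. Sema4d, a ligand of plexin B1 also known on lymphocytes as CD100, fell by 1.07 on the log2 scale (SE 0.18, adjusted p = 0.000217), from 8.03, 8.04 and 8.25 to 6.63, 7.13 and 7.34. Its other probe sets differed by only -0.09 each.

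Sema5a kept rising, from 6.81, 6.80 and 6.29 to 8.38, 8.96 and 9.31, so that no day 5 array was near a day 3 array. The step was 2.25 ± 0.25, or 4.76-fold (limma adjusted p = 1.79e-06), and the other probe sets differed by 1.98, 0.57 and 0.31. Sema6d read 6.98, 6.92 and 6.30 at day 3 and 7.91, 8.41 and 7.97 at day 5 (1.36 ± 0.21, 2.57-fold, adjusted p = 8.66e-05), a rise carried by its brightest probe set, the others differing by 0.06 to 0.18. Sema4c, a ligand of plexin B2, differed by 0.71, which did not pass.

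**Figure D2:**
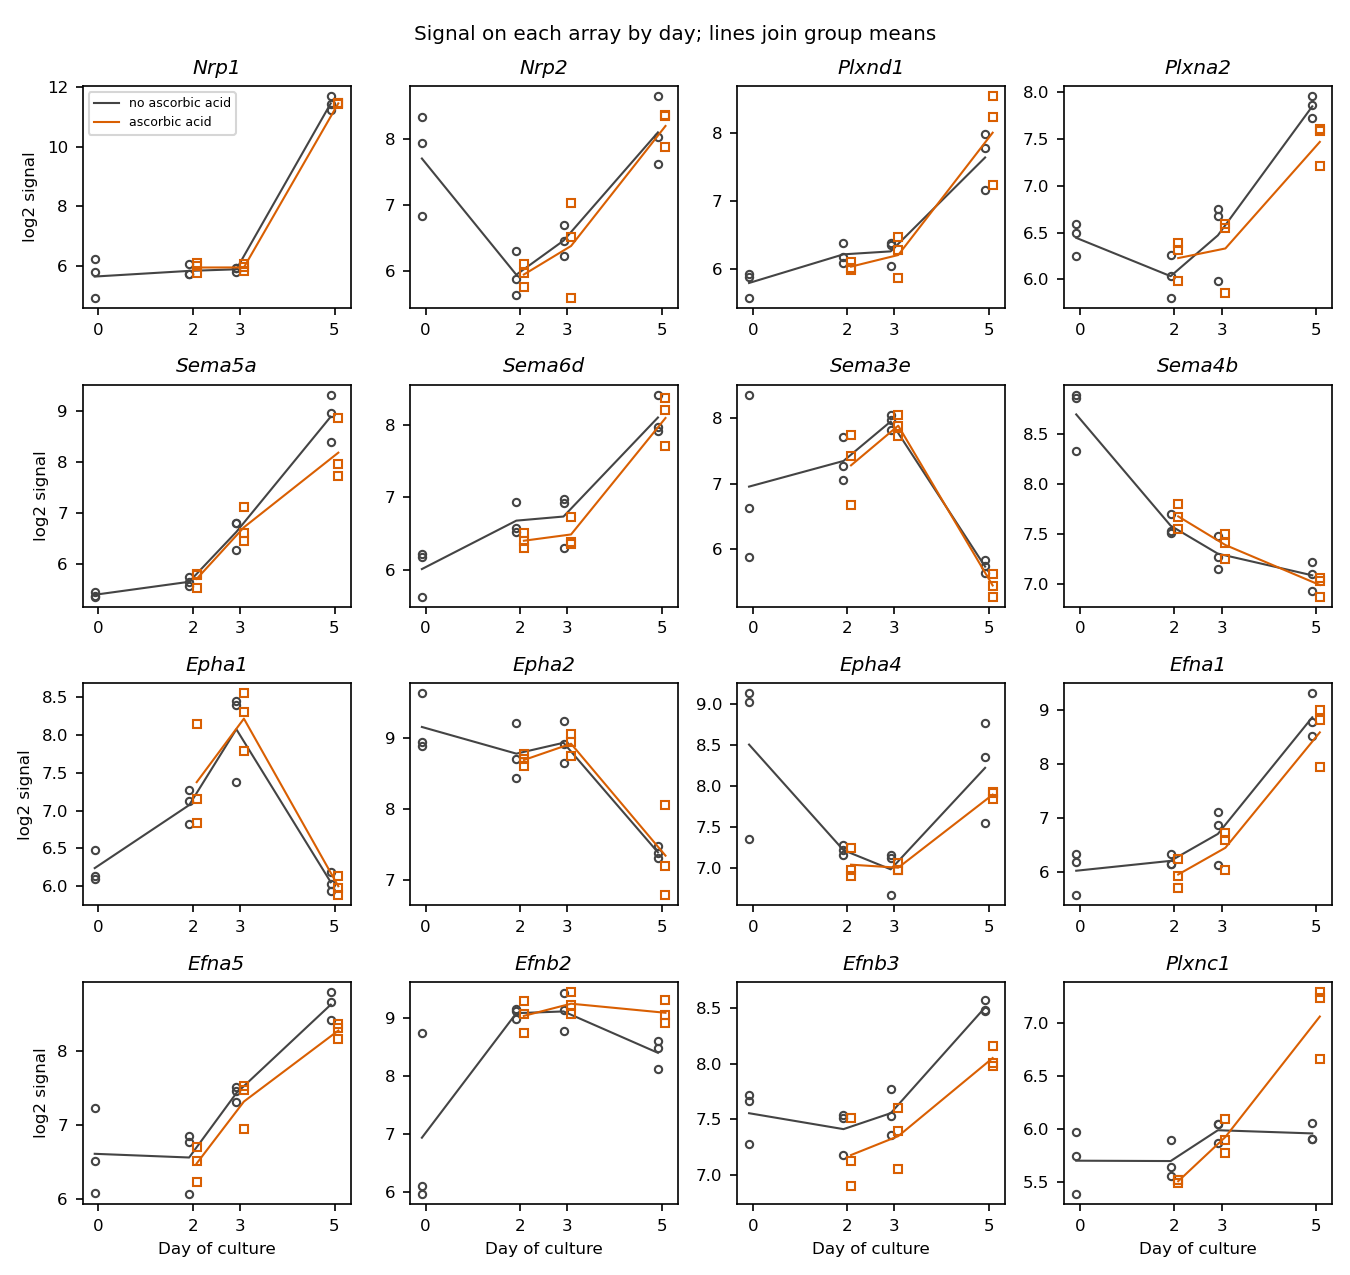
Log2 signal (y axis) by day (x axis) of 16 genes; each point is an array, lines join group means, grey circles are control bodies and orange squares bodies given AA, with day 0 common to both. Nrp1 stays flat until day 3 and reaches 11.24 to 11.70 at day 5 in both arms, Epha1 peaks at day 3, and Plxnc1 separates the arms at day 5.

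The time courses show several shapes within the family. Epha1 climbed to day 3 and then fell to 5.94, 6.19 and 6.03 in day 5 controls, below its day 3 arrays of 8.40, 8.45 and 7.38 (-2.02 ± 0.29, 4.07-fold lower, limma adjusted p = 3.79e-05); its other probe sets differed by -0.41 and -0.23. EphA2, a receptor of ephrin A1 in epithelia and in embryos, held near its day 0 level until day 3, at 9.24, 8.91 and 8.65, and then fell to 7.38, 7.30 and 7.48 (-1.55 ± 0.26, 2.92-fold lower, adjusted p = 0.000206). Epha4 ran the other way, from 7.16, 7.13 and 6.67 up to 8.35, 8.77 and 7.55 (1.24 ± 0.33, 2.36-fold, adjusted p = 0.0109), with differences of 0.67 to 2.45 over its 5 probe sets. EphB4, the ephrin B2 receptor of veins, rose by 0.49 ± 0.15 (adjusted p = 0.0299), from 7.75, 7.63 and 8.16 to 8.31, 8.34 and 8.36, and EphB3 by 0.47 ± 0.14 (adjusted p = 0.0190), from 8.34, 8.58 and 8.33 to 9.03, 8.67 and 8.97.

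Ephrin A1, a ligand of EphA2, read 6.86, 7.11 and 6.13 at day 3 and 8.51, 8.78 and 9.31 at day 5. It rose 4.49-fold (2.17 ± 0.29, limma adjusted p = 1.86e-05), with 2.05 on its other probe set, while the receptor fell. Ephrin A5 rose from 7.46, 7.52 and 7.32 to 8.80, 8.67 and 8.42 (1.20 ± 0.24, adjusted p = 0.00115), but its other probe set differed by -0.14. Ephrin B3, known as a midline barrier in the spinal cord, rose from 7.77, 7.53 and 7.36 to 8.47, 8.57 and 8.48 (0.95 ± 0.17, adjusted p = 0.000428). Efna4, another of the neighbouring A-type ephrin genes, rose by 0.53 ± 0.18 (adjusted p = 0.0485), from 7.90, 7.68 and 7.18 to 8.25, 8.11 and 7.98.

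Ephrin B1 differed by 0.57 on its brightest probe set, which did not pass (limma adjusted p = 0.0637). Another of its probe sets read 5.93, 6.13 and 5.56 at day 3 and 8.52, 8.99 and 8.87 at day 5, a difference of 2.92 ± 0.20, and the remaining set differed by 1.01. Efnb2 differed by -0.71 without passing. Among the 18 calls, those of Efna4, Epha4, Ephb3, Ephb4 and Plxnb2 were each lost when some single array was left out, and between 14 and 17 members were called in those fits; without day 3 replicate 3 of both arms 14 were called. In that fit Efna4, Epha4, Ephb3 and Plxnb2 lost the call, while Nrp1 differed by 5.53, Sema5a by 2.08, Efna1 by 1.88, Sema6d by 1.15, Plxna2 by 1.14, Sema3e by -2.16 and Epha1 by -2.37.

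**Figure D3:**
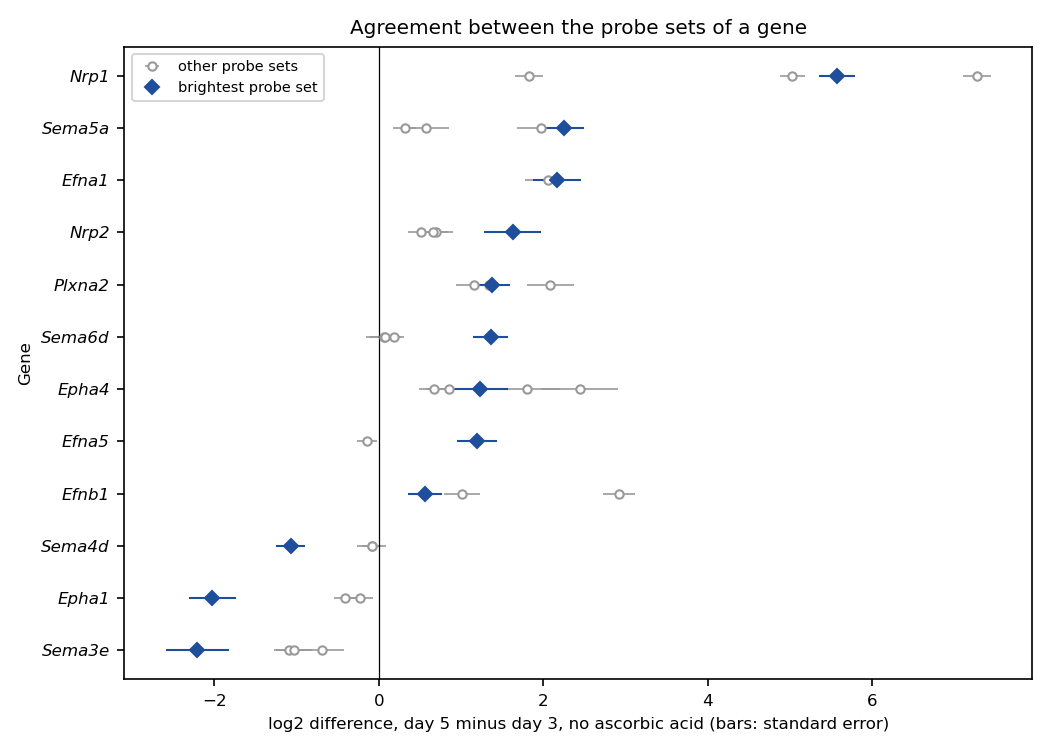
Log2 difference from day 3 to day 5 in control bodies (x axis) for every probe set of 12 genes (rows); blue diamonds are the brightest probe set and grey circles the others, with bars for standard errors. All 4 Nrp1 probe sets rose, whereas the other sets of Sema4d and Efna5 lie close to 0 and an Efnb1 set lies at 2.92, beyond its brightest at 0.57.

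In the AA arm the same step also called 18 members, 14 up and 4 down (34.0% against 18.1% of all genes; rose 26.4% against 9.21%, fell 7.55% against 8.92%; median 0.04 against -0.02). The arms share no arrays, and 14 genes were called in both, 77.8% of either list. As in the step before, the arms are not independent, and the share of all genes called in both was not computed. Nrp1 rose from 5.96, 6.06 and 5.82 to 11.47, 11.47 and 11.43, a 45.6-fold ratio of the signals that again starts in the low range. The other shared rises were Efna1 (2.14), Nrp2 (1.81), Plxnd1 (1.79), Sema6d (1.60), Sema5a (1.46), Plxna2 (1.14), Efna5 (0.96), Efnb3 (0.70) and Plxnb2 (0.48), and the shared falls were Sema3e (-2.43), Epha1 (-2.22), Epha2 (-1.58) and Sema4d (-1.39).

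The lists parted at 8 genes. Efna4, Epha4, Ephb3 and Ephb4 were called in the control arm only, and in the AA arm they differed by 0.17, 0.89, 0.32 and 0.35 in turn. Plxnc1, Efnb1, Sema3a and Plxna4 were called in the AA arm only. Plexin C1, the receptor of Sema7A, read 5.90, 5.78 and 6.10 on day 3 and 7.23, 7.29 and 6.66 on day 5 with AA (1.13 ± 0.16, 2.19-fold, limma adjusted p = 2.97e-05), against a difference of -0.03 in controls. Efnb1 rose by 0.64 (adjusted p = 0.0341) and Sema3a, the classical growth cone repellent, by 0.50 (adjusted p = 0.0286). Plxna4, a co-receptor of Sema3A, rose by 0.31 (adjusted p = 0.0457), from 6.70, 6.44 and 6.67 to 7.04, 6.85 and 6.86. Of these 8 genes only Plxnc1 passed the paired test of whether the effect of AA differs between days, and none passed the unpaired one. Leaving out day 3 AA replicate 3 took the count from 18 to 12, without Efna5, Efnb1, Efnb3, Plxna4, Plxnb2 and Sema3a.

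**Figure D4:**
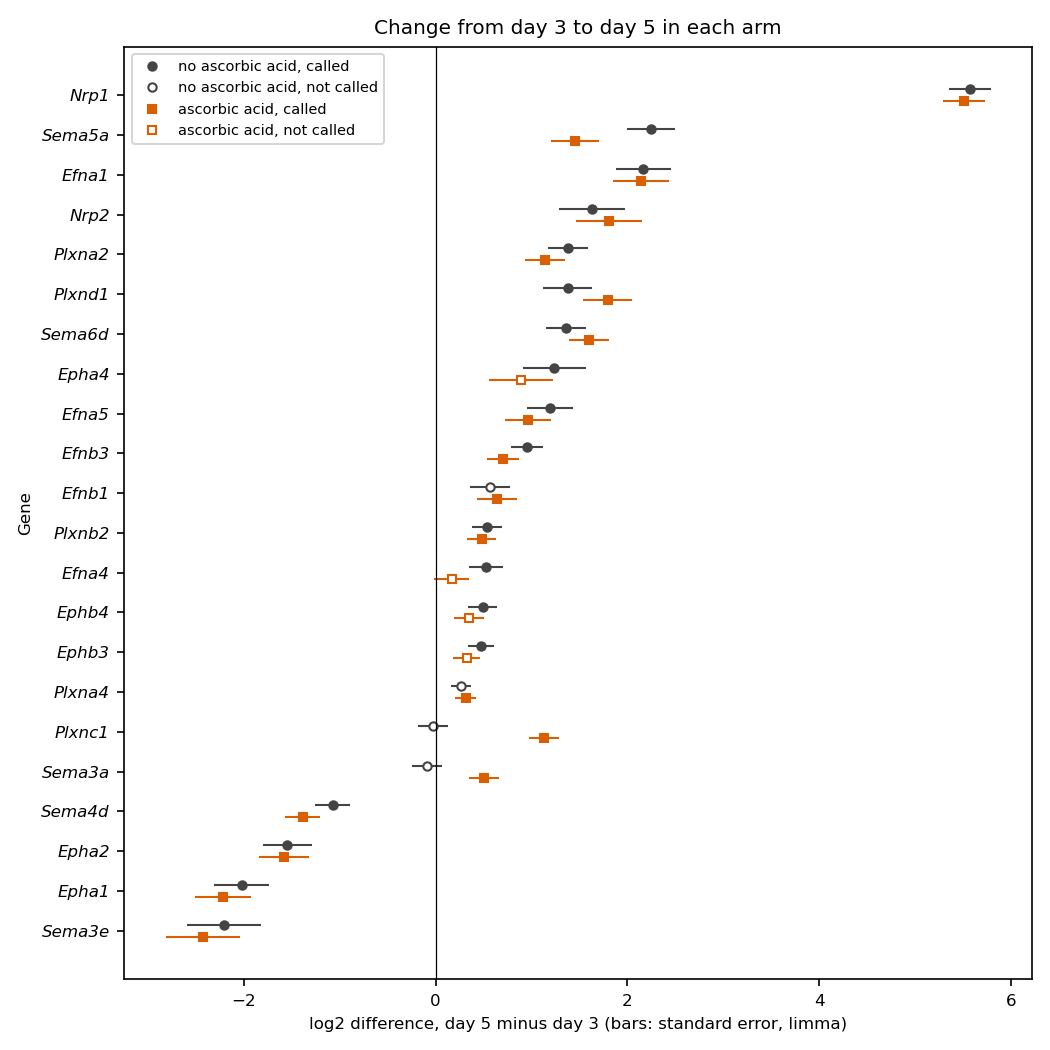
Log2 difference from day 3 to day 5 (x axis, mean ± SE, 3 arrays against 3) of 22 genes in control bodies and in bodies given AA; filled markers were called at an adjusted p under 0.05. The arms lie close for Nrp1 (5.57 and 5.51) and Efna1 (2.17 and 2.14), and Plxnc1 lies at -0.03 in controls and 1.13 with AA.

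Partners of these proteins moved at the same step, where 9.08% of all genes rose and 9.24% fell in controls. Of 8 VEGF ligands and receptors, which share neuropilins with class 3 semaphorins, 4 rose in controls and 0 fell, with a median of 0.67; Vegfc rose by 2.80 ± 0.34, Kdr, the main VEGF-A receptor, by 2.73 ± 0.21, and Vegfa by 2.22 ± 0.47. Of 36 plexin and neuropilin partners 8 rose and 2 fell (median 0.17): the collapsin response mediator Dpysl2 rose by 1.93 ± 0.32 and the oxidoreductase Mical1 by 1.70 ± 0.29, whereas Crmp1 fell by 1.36 and L1cam by 0.72 on the log2 scale. Of 38 Eph and ephrin partners 8 rose and 2 fell (median 0.12), the rises led by the exchange factor Kalrn (1.90 ± 0.26), Adam10, the protease that cleaves ephrins (1.44 ± 0.20), and Sdcbp (1.24 ± 0.13), and the falls being Pick1 (-0.62) and Arhgef5 (-0.56). In the other guidance families 6 of 22 rose and 1 fell (median 0.10), with Unc5c at 2.25 ± 0.23, Slit2 at 2.08 ± 0.30 and Robo1 at 1.67 ± 0.20, and with Rgmb at -0.64.

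Cell type markers shifted over the same interval in the controls, where 9.08% of all genes rose and 9.24% fell. Of 8 markers of later mesoderm and mesenchyme 6 rose and 1 fell, and their mean per array went from 6.50 to 6.88 at day 3 to 9.35 to 9.59 at day 5. Endothelial markers rose in 3 of 8 (Kdr, which is also in the VEGF list, Cdh5 and Tie1), with array means of 5.73 to 5.81 and then 6.23 to 7.01. Blood markers rose in 2 of 8, and definitive endoderm markers rose in 4 and fell in 1 of 8. Extraembryonic endoderm markers rose in 5 of 8 and trophoblast markers in 5 of 7, among them Hand1, which is also counted in the mesenchyme list. Neuroectoderm markers rose in 1 and fell in 1 of 6, and neural crest markers rose in 2 and fell in 1 of 7. All 8 pluripotency markers and 4 of 8 primitive streak markers fell. The part of these cell types in the rise of Nrp1, Plxnd1 and the other members was not tested.

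Over the whole span from day 0 to day 5 in controls, 24 members were called, 17 higher and 7 lower at day 5 (45.3% against 29.9% of all genes; rose 32.1% against 15.9%, fell 13.2% against 14.0%; median 0.02 against -0.04). All 3 B-type ephrins, 4 of 5 A-type ephrins and 3 of 4 EphB receptors rose, whereas among 9 EphA receptors 0 rose and 2 fell. This step shares its arrays with the shorter steps, so it adds the net change and not separate support. Nrp1 rose from 6.22, 4.92 and 5.78 at day 0 (5.82 ± 0.22, limma adjusted p = 1.57e-13), Sema5a from 5.46, 5.39 and 5.37 (3.48 ± 0.25, adjusted p = 2.70e-09) and Efna1 from 6.32, 6.17 and 5.56 (2.85 ± 0.29, adjusted p = 2.35e-07). All 3 start in the low range, so their ratios of 56.4-fold, 11.1-fold and 7.21-fold are those of the signals and may understate the change in RNA. The lower group of Sema4c, Sema6d, Efna5, Plxnd1, Plxna2, Sema3e and Sema4a also lies in that range.

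Some genes passed over the whole span and in no single step of the controls. Sema4c read 5.56, 6.51 and 5.69 at day 0 and 8.22, 8.37 and 7.41 at day 5, with intermediate levels on the days between (2.08 ± 0.31, 4.23-fold, limma adjusted p = 3.00e-05). Efna2 rose from 7.59, 7.71 and 7.29 to 8.80, 8.84 and 8.93 (1.33 ± 0.18, 2.51-fold), and Efnb1 from 7.22, 6.91 and 7.42 to 8.02, 7.99 and 8.47 (0.98 ± 0.21, adjusted p = 0.000995). Efna3 rose by 0.83 and Ephb1 by 0.65. Sema6d (4.25-fold), Efna5 (4.05-fold), Plxnd1 (3.58-fold), Plxna2 (2.65-fold), Efnb3 (1.94-fold), Ephb4 (1.59-fold), Plxnb2 (1.57-fold) and Ephb3 (1.30-fold) also rose.

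The net falls were those of Epha2 (3.41-fold lower, limma adjusted p = 2.02e-05), Sema4b (3.05-fold, adjusted p = 4.98e-08), Sema3e (2.32-fold, adjusted p = 0.0208), Sema4d (2.17-fold, adjusted p = 6.02e-05), Sema4a (1.94-fold), Epha10 (1.30-fold) and Sema3g, which fell by 0.39 on the log2 scale within the low range. Sema4a, at 5.99, 7.12 and 7.57 on day 0 and 5.87, 5.92 and 6.03 on day 5, overlapped through replicate 1 of day 0, as did Efnb2, at 2.76-fold (adjusted p = 0.0157). Ephb3 also overlapped. Without day 0 replicate 1 the calls of Sema3e (-0.52, from 6.63 and 5.88 at day 0), Sema3g, Epha10 and Ephb3 were lost, Efnb2 differed by 2.37, Sema4a by -1.41 and Nrp1 by 6.11, and 23 members were called. Other calls also hung on few arrays or on the fit. Efnb2 lost its call without day 0 replicate 2 or 3 or day 5 control replicate 2. The mean of its probe sets (0.53) was not called either. Efna3 lost its call without day 0 replicate 3 or day 5 control replicate 3. Ephb1 lost it without day 0 replicate 2 or day 5 control replicate 1 or 2, and Ephb3 in 6 of 13 alternatives. Sema4a lost it without day 0 replicate 3, and Sema3e without day 5 control replicate 2 or 3. With only the compared groups in the fit, Efnb2, Ephb1, Sema4a and Sema3e were among those not called.

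Ascorbic acid changed few of these genes. With limma on group means, 1 member was called between AA and control bodies, Plxnc1 at day 5 (1.89% of members against 0.0605% of all genes, of which 0.0440% were higher with AA and 0.0165% lower). Because arrays with the same replicate number deviated together, the comparison was also fitted within the 9 pairs of day and number, which called 3 members at day 5, 5.66% against 0.956% of all genes: Plxnc1 and Efnb2 rose and Sema5a fell. The paired shares by direction over all genes were 0.781% up and 0.176% down. The median difference of the family at day 5 was -0.07 against 0.01 over all genes.

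Plxnc1 read 6.06, 5.91 and 5.91 in day 5 controls and 7.23, 7.29 and 6.66 with AA. All AA arrays were higher, with pair differences of 1.17, 1.38 and 0.75, against -0.41, -0.12 and -0.04 at day 2 and 0.03, -0.27 and 0.05 at day 3. The rise was 1.10 ± 0.16 (2.14-fold, limma adjusted p = 0.00778; paired SE 0.13, adjusted p = 0.000332). The effect of AA on Plxnc1 differed between days in the paired F test (adjusted p = 0.00369; 0.511% of all genes called) but did not pass in the unpaired one (adjusted p = 0.103; 0.00550% of all genes). The next probe set read 5.80, 5.74 and 5.12 in controls and 6.62, 6.43 and 5.83 with AA (0.74 ± 0.11 paired, adjusted p = 0.00233 over all probe sets), and the other 4 differed by 0.25, 0.13, -0.10 and -0.04. Averaging all its probe sets gave 0.35 (adjusted p = 0.498), and the unpaired call was lost with only the compared groups in the fit (adjusted p = 0.0971) and without day 5 AA replicate 1 (adjusted p = 0.0968) or replicate 2 (adjusted p = 0.0750), while the paired call remained without any of the 3 pairs. Plxnc1's mean over the 21 arrays, 5.98, lies in the low range, and of its groups only the AA bodies at day 5 rise above 6.75 on average.

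Efnb2 read 8.49, 8.60 and 8.12 in day 5 controls and 9.31, 8.92 and 9.05 with AA, with no overlap and pair differences of 0.82, 0.32 and 0.93. The rise was 0.69 ± 0.12 in the paired fit (1.61-fold, limma adjusted p = 0.00667) and was not called on group means (SE 0.44, adjusted p = 1). Its next probe set rose by 0.73 ± 0.13 (adjusted p = 0.0112 over all probe sets), from 8.06, 7.84 and 7.39 to 8.55, 8.52 and 8.40, and the other sets differed by -0.16 and 0.26. Sema5a read 8.38, 8.96 and 9.31 in controls and 7.73, 7.95 and 8.86 with AA, so the groups overlapped through replicate 3, but each pair was lower with AA (-0.65, -1.01 and -0.45). The paired difference was -0.70 ± 0.13 (1.63-fold lower, adjusted p = 0.0108; adjusted p = 1 on group means), with -0.52 ± 0.12 on the next probe set (adjusted p = 0.0466) and -0.12 and -0.05 on the others. Efnb2 lost its paired call without pair 1 (adjusted p = 0.129) or pair 3 (0.0667), and Sema5a without pair 1 (0.0899) or pair 2 (0.146).

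**Figure D5:**
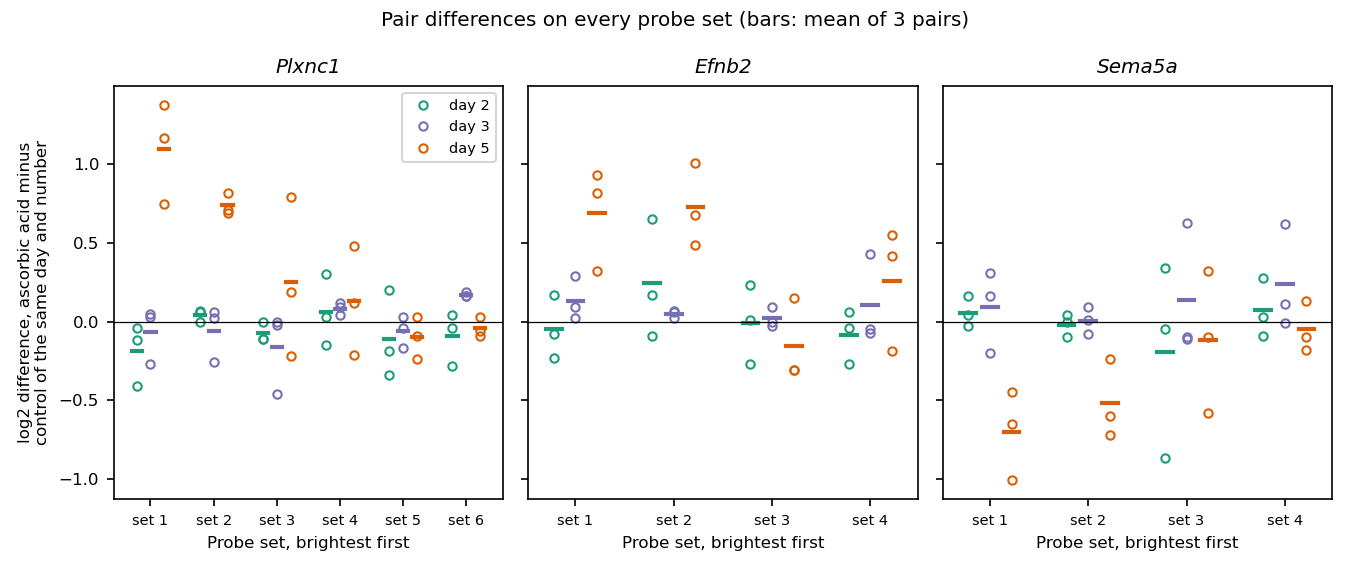
Log2 difference, AA minus control, within each pair of arrays (points, 3 per day) at days 2, 3 and 5 for every probe set of Plxnc1 (6), Efnb2 (4) and Sema5a (4); bars are means of the 3 pairs. On the brightest probe sets the day 5 pairs lie at 0.75 to 1.38 for Plxnc1, 0.32 to 0.93 for Efnb2 and -1.01 to -0.45 for Sema5a.

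The pair differences plotted by probe set show that the day 5 shift of each gene is present on a pair of its probe sets and small on the others. In the same comparison the paired fit called 5 of 8 embryonic blood markers, all higher with AA (Hbb-bh1 by 2.76, Hba-x by 1.70, Tal1 by 1.63, Klf1 by 1.03 and Gata1 by 0.97), and 3 of 8 endothelial markers (Tek by 1.81, Sox18 by 1.04 and Cdh5 by 0.97). Of all genes, that fit called 0.781% higher with AA. It also called Hhex of the definitive endoderm list and Sox7 of the extraembryonic endoderm list, both higher with AA. On group means 2 of 8 blood markers (Tal1 and Gata1) and 0 of 8 endothelial markers were called, where 0.0440% of all genes were higher. Summed as the mean of each array, blood markers ran from 7.30 to 8.00 in day 5 controls and from 8.23 to 9.17 with AA, and endothelial markers from 6.23 to 7.01 and from 6.67 to 7.71. The part of these cells in the Plxnc1 and Efnb2 values was not tested. Of partner genes, Crmp1 (0.64), Rap1b (0.31) and Vav3 (1.05) were among those that rose in the paired fit, and none of the partner lists had a call on group means.

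At days 2 and 3 no member was called by limma in either fit. On group means 1 member had an unadjusted p under 0.05 at each day, against 1341 and 269 of all 18193 genes. In the paired fit 5 and 2 members did, against 3248 and 831 genes. At day 5 the counts were 3 members against 590 genes on group means, and 12 against 1422 in the paired fit. Of all genes 0.00550% were called at day 2 (2.64% paired, 2.11% being higher with AA) and 0% at day 3 (0.198% paired, 0.0934% higher). The family's median differences were -0.09 against -0.01 at day 2 and -0.03 against 0.01 at day 3. The nearest at day 2 were Epha8 (-0.43 ± 0.14, paired adjusted p = 0.111), Efna2 (-0.30 ± 0.10, 0.129) and Sema3f (-0.27 ± 0.10, 0.153), and at day 3 Sema3a (-0.35 ± 0.13, 0.793), Epha7 (0.37 ± 0.15, 0.922) and Ephb4 (0.24 ± 0.14, 0.996). Averaged over the 3 days, limma called no member in either fit. In the paired fit 8 members had an unadjusted p under 0.05, against 2378 of all 18193 genes, and on group means 2 against 877. Of all genes 1.94% were called paired, 1.45% higher with AA, and 0.0275% on group means, 0.0165% higher and 0.0110% lower. Nearest were Efnb2 at 0.26 ± 0.07 (paired adjusted p = 0.0622), Plxnc1 at 0.28 ± 0.08 (0.0691) and Efnb3 at -0.30 ± 0.08 (0.0772). The members' median of that average was -0.05 against 0.00.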

How the data were processed

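RNA of 21 samples (CGR8 cells and embryoid bodies, 7 groups of 3) was hybridised by the study to Affymetrix arrays from 100 ng of total RNA. The authors deposited log2 values, normalised with RMA per the submitters' processing notes (version not stated there). RMA makes the arrays' distributions alike, so a change shared by all genes is removed. Probe sets were named through GEO's platform annotation: of 45101, 34945 have 1 symbol, 932 have several and were left out, and the brightest stood for each of 18193 genes.

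limma 3.58.1 in R 4.3.3 (lmFit, eBayes with an intensity trend) fitted the 7 group means, with Benjamini-Hochberg adjustment over all genes and a threshold of 0.05; probe sets were fitted in the same way over all probe sets. Figures used matplotlib 3.10.9 and pandas 2.3.3. Arrays of the same day and replicate number in the labels deviated from their group means together in all 9 pairs (r = 0.178 to 0.679), so they were treated as pairs, and AA comparisons were also fitted with the pair as a block (18 arrays, day 0 left out). Only 3 arrays a group limit the precision of every value. The scripts were tested on simulated data. Alternatives were the replicate block, a renewed normalisation, centring, no trend, a level filter of 5, the mean of a gene's probe sets, fewer groups, and left-out arrays; leaving out each pair was added after seeing the data. The genes, partner lists and marker lists were chosen with earlier results of these data known. Named were members called with arrays that do not overlap (up to 8 rises and 8 falls), for AA those called in either fit or the 3 with the smallest p, and up to 3 called genes a list, of which some are not reported here; the remaining members were added by name so that each is accounted for. Ephb2 was not analysed here.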

Additional observations from a re-analysis of the deposited data

Results flagged for a closer look

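The effect of AA on Plxnc1 differed between days 2, 3 and 5 in the paired limma F test, with an adjusted p of 0.00369 over all genes. The pair differences were -0.41, -0.12 and -0.04 at day 2, 0.03, -0.27 and 0.05 at day 3 and 1.17, 1.38 and 0.75 at day 5, so every pair was higher with AA at day 5 only. On group means, without pairing, the same test gave an adjusted p of 0.103.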

How the results depend on the processing

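Counts of called members from day 3 to day 5 and from day 0 to day 5 stayed within 1.5 times their value in every alternative run. The day 0 to day 2 count of 5 fell to 1 with only the compared groups in the fit and ran from 3 to 9 with single arrays left out. From day 2 to day 3 the counts fell to 1 in either arm with the mean of a gene's probe sets, and leaving out arrays gave 1 to 5 in controls, 7 without day 3 replicate 3 of both arms, and 0 to 4 with AA; Sema6a then reversed, from -0.53 to 0.14, with the mean of the probe sets. For AA at day 5 the count of 1 became 3 with the replicate block, 0 with the mean of the probe sets or only the compared groups, 0 to 1 with arrays left out, and 2 and 3 in the paired fit without pair 2 and pair 3 (Epha4, Plxnc1 and Sema5a in the last). For the other AA comparisons, with 0 called on group means, the replicate block without a pair gave 1 member at day 2 (Epha1), and 1 or 2 for the average of days; the test of a difference between days called 1 with the replicate block, 1 to 2 when a pair was left out, and 1 without day 5 AA replicate 3. Of the other values named, 903 kept direction and side of the threshold, 150 lost the call, 4 gained it and 1 reversed. The cause of these shifts was not tested, beyond the fewer arrays in some fits. A replicate block across all days gave 7, 19 and 24 called members for the steps to day 2, day 5 from day 3, and day 5 from day 0. With 3 arrays a group, small differences cannot be resolved, and 22 members lie in the low-signal range.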

Other observations

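Epha7, a receptor of A-type ephrins that was not called on its brightest probe set (-0.67 from day 2 to day 3 in controls), has a dimmer probe set that moved the other way. That set read 3.78, 3.54 and 3.57 in day 2 controls and 5.54, 5.85 and 4.63 in day 3 controls, with no overlap, a difference in signal of 1.71 ± 0.43 (limma adjusted p = 0.0276 over all probe sets). In day 5 controls it read 5.69, 5.96 and 4.15. All of these values lie under 6.75, in the low range, so the size of the change in RNA is not known. The set was singled out after its values were seen.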
